A study of Mus musculus with 6 samples.

Results

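The 9 genes described here encode signal transducers and activators of transcription (Stat3, Stat4, Stat5a, Stat5b and Stat6) and inhibitors that these factors induce (Socs1, Socs2, Socs3 and Cish). They were taken by symbol from a deposited table of 19323 genes, and all 9 were found and passed the filter on low values, a mean of at least 10 normalized counts over the 6 libraries. RNA was sequenced from CD8+ T cells isolated from the spleens of wild-type C57BL/6 mice. The mice were 6 weeks old at the start and then received one of 2 diets for 7 weeks, named ND (3 libraries) and MCDHFD (3 libraries) in the labels. The labels speak of MASH models, MASH being inflammation and injury of a fatty liver, and spell out neither diet abbreviation. They also do not say whether a library came from 1 animal or from several pooled, so every p-value below refers to the spread among these libraries, which may be technical.

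Cytokines bind receptor chains that carry Janus kinases (JAKs). The kinases phosphorylate the receptor and then STAT proteins, which pair, enter the nucleus and switch on target genes. Among those targets are the SOCS genes and Cish, whose proteins bind the receptor or the kinase and end the signal, so their transcripts are often read as a trace of recent cytokine signalling. In CD8 T cells, STAT5 carries signals of IL-2, IL-7 and IL-15, STAT4 those of IL-12, STAT6 those of IL-4, and STAT3 those of IL-6, IL-10, IL-21 and IL-27.

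STAT dimers bind DNA at a palindrome spelled TTCNNNGAA, and some of the inhibitor genes hold it near their start. Promoter windows of 300 bases, 250 before and 50 from the annotated start, were searched in the RefSeq sequences of build GRCm38.p6, which matched 8 of the 9 members with 11 windows. Socs2 had no window there and was not searched. The palindrome, which reads the same on both strands, was present in 2 of the 11 windows, those of Socs3 and Cish, against 8.30% of all 32851 windows. The form with 4 bases between TTC and GAA, a spacing that STAT6 favours, was in 0 of the 11 and in 6.95% of all windows. The repeat of GAAA with 2 bases between, bound by interferon regulatory factors, was searched on both strands and was in 2 of the 11 windows, that of Socs1 and the downstream start of Stat4, against 3.44% of all. The stretches of the 3 inhibitor genes are shown because they carry these letters, in capitals: the palindromes in Socs3 and Cish, and in Socs1 a pair of repeats that overlap each other. A match describes the letters only, and which start the cells used was not measured.
Socs3, chr11:117969452-117969616, minus strand: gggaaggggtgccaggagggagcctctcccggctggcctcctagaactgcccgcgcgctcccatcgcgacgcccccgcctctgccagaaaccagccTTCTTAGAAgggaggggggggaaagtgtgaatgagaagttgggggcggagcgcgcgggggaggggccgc
Socs1, chr16:10785537-10785786, minus strand: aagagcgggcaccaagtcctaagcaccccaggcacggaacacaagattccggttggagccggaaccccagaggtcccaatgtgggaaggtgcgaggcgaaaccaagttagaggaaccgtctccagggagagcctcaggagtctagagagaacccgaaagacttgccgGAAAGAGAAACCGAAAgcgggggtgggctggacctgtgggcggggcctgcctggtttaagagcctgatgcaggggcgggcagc
Cish, chr9:107296655-107296682, plus strand: agttTTCCTGGAAagTTCTTGGAAatct
The Socs3 stretch was shortened until it overlapped no exon of Socs3 in GENCODE M21, and so ends 86 bases before the RefSeq start. It lies within the Socs3 gene of that annotation (chr11:117966079-117970047). The Socs1 stretch overlaps no exon of Socs1 there, and exons of other genes were not checked. The short Cish stretch spans the RefSeq start and lies in an untranslated part of an exon in that annotation.

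The libraries were CD8 T cell RNA with transcripts of other cells. The 5 libraries whose whole reads could be recovered held between 13188812 and 15482458 reads. The co-receptor gene Cd8a was at 14172, 13690 and 13490.5 normalized counts in ND and at 5772, 4884 and 5135 in MCDHFD. The summed level of 20 CD8 T cell identity genes went from 126625 to 127544 in ND to 60318.5 to 67687 in MCDHFD, and all 20 fell. Genes of monocytes and macrophages rose in 17 of 18 cases, and their summed level was 57669 to 66711 in ND and 257296 to 315319 in MCDHFD. Of the tested neutrophil genes 13 of 14 rose (sums of 1748 to 2539, then 11251 to 19015), and of the erythroid genes 13 of 13 (sums of 3892 to 4104, then 14874 to 23836). Of 8 CD4 and regulatory T cell genes 1 rose and 4 fell (sums of 3311 to 3425, then 2337 to 2444). Of 7 tested plasma cell genes 4 rose and 1 fell (sums of 5272 to 5593, then 6695 to 9945). Of 6 tested NK cell genes 2 rose and 3 fell (sums of 4483 to 4668, then 6613 to 8133). Among 13 genes of B cells 12 fell, among 13 of dendritic cells 11 fell, and 1 marker, the dendritic cell lectin Cd209a, was listed at 0 in the 3 MCDHFD libraries. These counts hold for the deposited scaling, on which 30.3% of all tested genes were higher and 28.1% lower. With the CD8 identity genes held equal, 11189 of the 13430 tested genes were higher and 455 lower. The identity genes were then 6 higher and 8 lower, the B cell genes 1 and 8, and the dendritic cell genes 3 and 10. All 18 macrophage, 14 neutrophil and 13 erythroid genes were higher. CD4, plasma and NK cell genes were 4, 6 and 3 higher, each with 1 lower. The neutrophil genes Elane, Mpo, Ctsg and Prtn3 (ND means of 1.63, 7.82, 0.33 and 5.88) passed the filter on low values only through MCDHFD. The dendritic cell genes Cd209a and Siglech (MCDHFD mean of 2.30) passed it only through ND. These markers thus had to differ to be counted. Macrophages and neutrophils also express STAT and SOCS genes, and the part of these cells in the values below was not tested. In such bulk samples fewer cells of a type and less RNA per cell cannot be told apart.

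Under MCDHFD the feedback inhibitors Socs3 and Socs2 and the factor Stat3 rose, while Stat4, Stat6 and Stat5a fell on the deposited scaling but not when the CD8 identity genes were held equal. Stat5b, Socs1 and Cish did not pass the test (limma, Benjamini-Hochberg adjusted p under 0.05 over 13430 tested genes). So 6 of 9 members changed, where 58.4% of all tested genes did. Of the members, 3 of 9 were higher, against 30.3% of all tested genes, and 3 of 9 were lower, against 28.1%. The groups of libraries did not overlap in 7 of 9 members, against 65.4% of tested genes. These shares are near the background, so the members are described by size and direction rather than by their number. The median log2 fold change of the 9 was -0.0028, against 0.0038 over all tested genes.

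**Figure D1:**
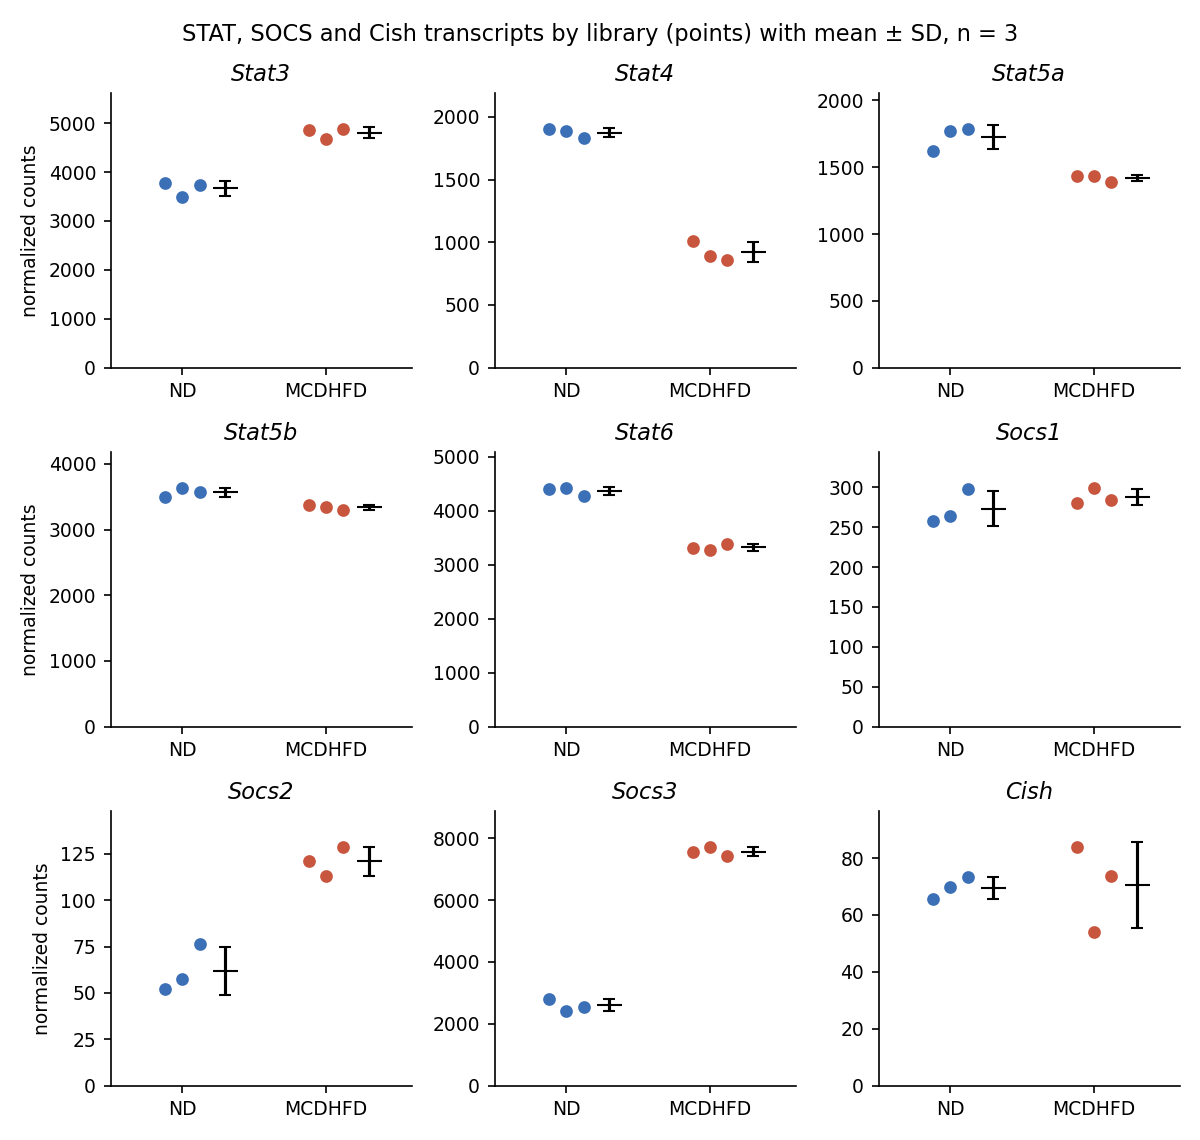
Normalized counts of the 9 members (vertical axes, each from 0) in the ND and MCDHFD libraries; points are libraries, and the bar gives the mean ± SD of n = 3. Socs3, Socs2 and Stat3 lie higher in every MCDHFD library than in any ND library, Stat4, Stat5a, Stat5b and Stat6 lie lower, and Socs1 and Cish overlap, all on the deposited scaling, while with the CD8 identity genes held equal these 4 factors are not lower.

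Of the inhibitors, Socs3 moved most. Its protein binds the receptor chain gp130 together with the JAK and limits STAT3 signals of IL-6 type cytokines. Socs3 was at 2806, 2428 and 2556 normalized counts in ND and at 7555, 7709 and 7424 in MCDHFD. Each MCDHFD library was thus far above each ND library, with a relative spread of 7.40% within ND and 1.89% within MCDHFD. The means were 2596 ± 192 and 7563 ± 143 (SD, n = 3), a 2.92-fold rise (log2 fold change 1.54, SE 0.061, limma adjusted p = 2.26e-07). That fold change lay at percentile 91.5 of all tested genes.

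Socs2, an inhibitor best known from growth hormone and STAT5 signalling, is a low transcript. It was at 51.9, 57.4 and 76.2 normalized counts in ND and at 121, 113 and 129 in MCDHFD. All 3 MCDHFD libraries were above all ND libraries, with ND replicate 3 the highest of its diet. Socs2 rose 1.97-fold (log2 difference 0.97 with a 95% interval of 0.57 to 1.38, limma adjusted p = 0.00138).

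Socs1, which blocks the JAK active site and is the chief brake on interferon gamma signals, was at 258, 265 and 298 normalized counts in ND and at 280.5, 299 and 284 in MCDHFD. The diets overlapped, and the log2 fold change of 0.076 had a 95% interval of -0.14 to 0.29 (limma adjusted p = 0.508). Cish, a STAT5 target induced by IL-2 and by T cell receptor signals, was at 65.6, 70.0 and 73.2 in ND and at 83.8, 54.1 and 73.8 in MCDHFD. Its MCDHFD libraries lay on either side of the ND range. The 95% interval of its log2 fold change was -0.45 to 0.44 (limma adjusted p = 0.991), so changes within it in either direction were not excluded. The 2 members with the palindrome in their windows, Socs3 and Cish, had log2 fold changes of 1.54 and -0.0028, and Socs2 was not searched for it.

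Among the factors, Stat3 was the 1 member that rose. It was at 3784, 3486.5 and 3728 normalized counts in ND and at 4863, 4670.4 and 4876 in MCDHFD, with no overlap. This was a 1.31-fold rise (log2 fold change 0.39, SE 0.052, limma adjusted p = 0.000224), well below that of Socs3.

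Stat4, the IL-12 factor that drives interferon gamma production, fell most. It was at 1901, 1885 and 1834 normalized counts in ND and at 1009.9, 890.4 and 861 in MCDHFD. The lowest ND library was above the highest MCDHFD library by a wide margin. The means were 1874 ± 35.1 and 920.5 ± 78.7 (SD, n = 3), a difference of -1.03 on the log2 scale (SE 0.069, limma adjusted p = 3.53e-06), at percentile 7.6 of all tested genes. With the CD8 identity genes held equal across libraries, the same difference was 0.0075 (limma adjusted p = 0.915), where the median difference of those 20 genes on the deposited scaling was -1.02.

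Stat6, the IL-4 and IL-13 factor, was at 4404, 4416 and 4281 normalized counts in ND and at 3314, 3265 and 3380.2 in MCDHFD. Its diets did not overlap (log2 fold change -0.40, SE 0.046, limma adjusted p = 9.78e-05). Stat5a and Stat5b are near-identical factors that carry IL-2, IL-7 and IL-15 signals, and reads of their shared stretches can be split between them. Stat5a was at 1621, 1771.5 and 1784 in ND and at 1436, 1432 and 1389 in MCDHFD, and it fell by 0.28 on the log2 scale (SE 0.058, limma adjusted p = 0.00275). Stat5b was at 3495, 3629 and 3575 in ND and at 3373, 3346.5 and 3299.7 in MCDHFD. The Stat5b libraries of the diets did not overlap either, but the difference did not pass (log2 fold change -0.094, 95% interval -0.199 to 0.0096, limma adjusted p = 0.107).

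Position in the genome was shared by members that went different ways. In GENCODE M21 on mm10, Stat5b (chr11:100780731-100850724, minus strand), Stat5a (chr11:100859351-100885169, plus strand) and Stat3 (chr11:100885098-100939540, minus strand) are neighbours. Stat5b and Stat5a lie 8626 bases apart, and the ends of Stat5a and Stat3 share 72 bases on opposite strands. The sources used here do not state whether reads were counted by strand, so those in the shared bases cannot be assigned to either gene with certainty. On the deposited scaling Stat3 rose and Stat5a fell. Stat4 (chr1:51987148-52107189, plus strand) has no other member on its chromosome. Stat6 (chr10:127642986-127660957) and Socs2 (chr10:95385362-95417180) share a chromosome at a distance, as does Socs3 (chr11:117966079-117970047) with the Stat3 cluster. Socs1 (chr16:10782240-10785536) and Cish (chr9:107296026-107302784) stand alone.

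These directions hold for the deposited scaling and depend on it. When libraries were rescaled so that the 20 CD8 identity genes had the same mean log2 level in each, the median difference over all tested genes moved by 1.03 on the log2 scale. Under that scaling 8 of 9 members were higher and 0 lower, where 11189 of all tested genes were higher and 455 lower. Stat4 (log2 fold change 0.0075), Stat6 (0.64), Stat5a (0.75) and Stat5b (0.94) then stood below that general shift. Socs1 (1.11) and Cish (1.02) stood close to it, and Stat3 (1.43), Socs2 (2.0) and Socs3 (2.58) above it.

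**Figure D2:**
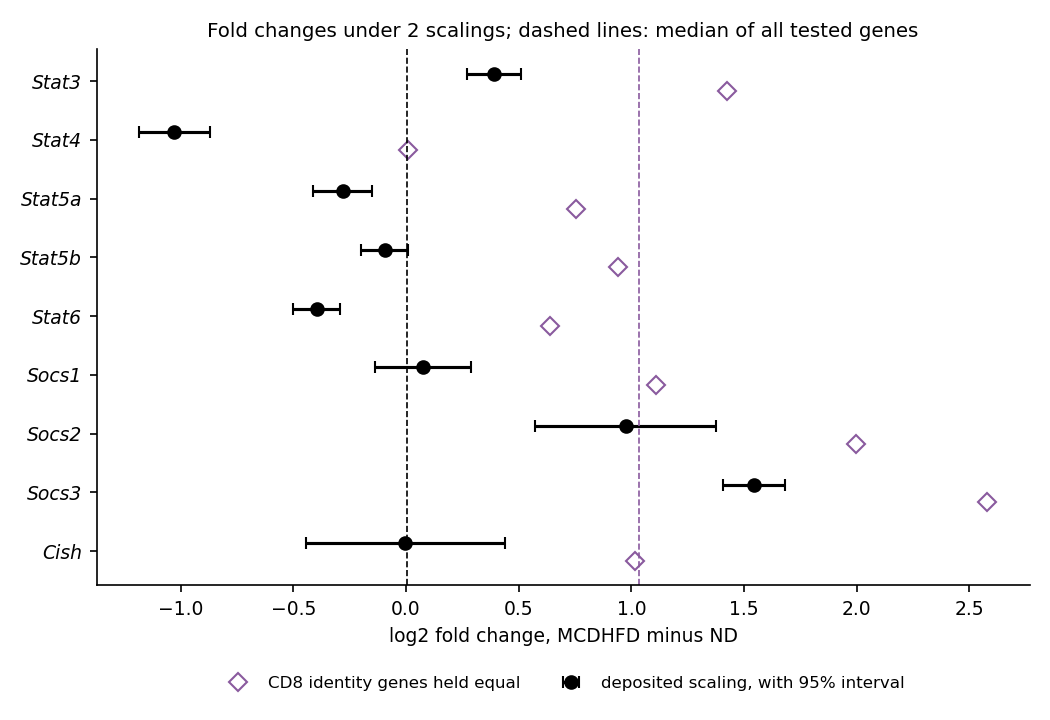
Log2 fold change (MCDHFD minus ND, horizontal axis) of the 9 members, with filled circles and 95% intervals on the deposited scaling and open diamonds with the CD8 identity genes held equal. The dashed lines give the median of all tested genes, 0.0038 and 1.03. Stat4, Stat5a, Stat5b and Stat6 are below 0 on the first scaling and above it on the second, and Socs3 is the highest on both.

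Levels of different genes were compared per kilobase of the principal annotated transcript. In ND the order was Stat6 (1157 ± 19.8 normalized counts per kb, SD, n = 3), Socs3 (1017 ± 75.3), Stat3 (812 ± 35.0), Stat5b (684 ± 12.9), Stat4 (628 ± 11.8), Stat5a (444 ± 23.3), Socs1 (94.0 ± 7.43), Socs2 (27.8 ± 5.74) and Cish (24.4 ± 1.35). Only the neighbours Socs2 and Cish overlapped among their libraries. In MCDHFD the order became Socs3 (2963 ± 56.0 normalized counts per kb), Stat3 (1064 ± 25.5), Stat6 (879 ± 15.3), Stat5b (641 ± 7.13), Stat5a (365.0 ± 6.69), Stat4 (309 ± 26.4), Socs1 (99.0 ± 3.33), Socs2 (54.5 ± 3.52) and Cish (24.8 ± 5.31), and no neighbours overlapped. Socs3 and Stat3 passed Stat6, and Stat5a passed Stat4, in each MCDHFD library. The relative spread over the libraries of a diet was 20.6% for Socs2 in ND and 21.4% for Cish in MCDHFD, and 8.55% or less in every other case, among them 6.45% for Socs2 in MCDHFD and 5.52% for Cish in ND.

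Shares within each family do not depend on how a library was scaled. Of the summed per-kilobase level of the 5 STAT members and Stat2, Stat3 made up 20.7%, 19.1% and 20.4% in ND and 30.3%, 29.5% and 30.7% in MCDHFD. Stat4 went the other way, from 15.8%, 15.6% and 15.2% to 9.52%, 8.52% and 8.22%. Stat6 held 28.6% ± 0.467 and 24.9% ± 0.470 (SD, n = 3), and Stat5b 16.9% ± 0.319 and 18.2% ± 0.151, both without overlap, while the Stat5a shares of 11.0% ± 0.580 and 10.3% ± 0.171 overlapped. Of the summed level of the 7 SOCS genes and Cish, Socs3 made up 70.9%, 66.2% and 64.7% in ND and 82.9%, 84.8% and 82.4% in MCDHFD. Socs1 made up 6.22% ± 0.464 and 2.79% ± 0.0926. Socs3 was thus the bulk of the summed level of the SOCS genes and Cish on either diet, and more so on MCDHFD.

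**Figure D3:**
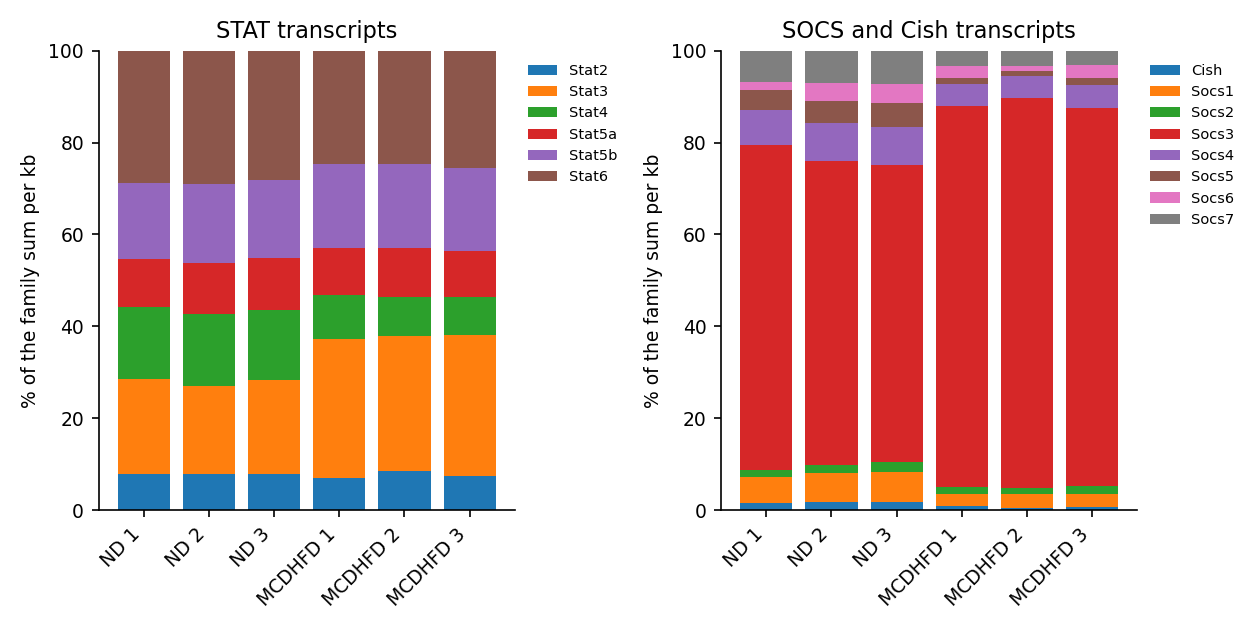
Stacked bars of each gene's share (vertical axis, percent) of the summed normalized counts per kb of the 5 STAT members and Stat2 (left) and of the 7 SOCS genes with Cish (right), one bar per library. The Stat3 share is 19.1% to 20.7% in ND and 29.5% to 30.7% in MCDHFD, and the Socs3 share 64.7% to 70.9% and 82.4% to 84.8%.

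Ratios of 2 members within a library are also free of its scaling, and 7 were computed on normalized counts. With 3 against 3 libraries the exact two-sided permutation test cannot go below p = 0.1. The ratio of Socs3 to Stat3 was 0.742, 0.696 and 0.685 in ND and 1.55, 1.65 and 1.52 in MCDHFD, a 2.23-fold difference (exact permutation p = 0.1, Benjamini-Hochberg adjusted p = 0.117 over the 7). Socs3 was thus below Stat3 in each ND library and above it in each MCDHFD library, in counts not divided by length. The ratio of Socs2 to the sum of Stat5a and Stat5b went from 0.0117 ± 0.00223 to 0.0254 ± 0.0019 (SD, n = 3), without overlap. That of Cish to the same sum was 0.0131 ± 0.000452 and 0.0148 ± 0.00316, and its libraries overlapped (exact permutation p = 0.4, adjusted p = 0.4). The ratio of Stat4 to Stat3 was 0.502, 0.541 and 0.492 in ND and 0.208, 0.191 and 0.177 in MCDHFD. The ratio of Stat6 to Stat3 went from 1.19 ± 0.0642 to 0.691 ± 0.00899, that of Socs1 to Stat3 from 0.0746 ± 0.00603 to 0.0600 ± 0.00348, and that of Stat5a to Stat5b from 0.484 ± 0.018 to 0.425 ± 0.00353. Each of these last 4 did not overlap between diets, at the smallest p that the test allows (exact permutation p = 0.1, adjusted p = 0.117).

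**Figure D4:**
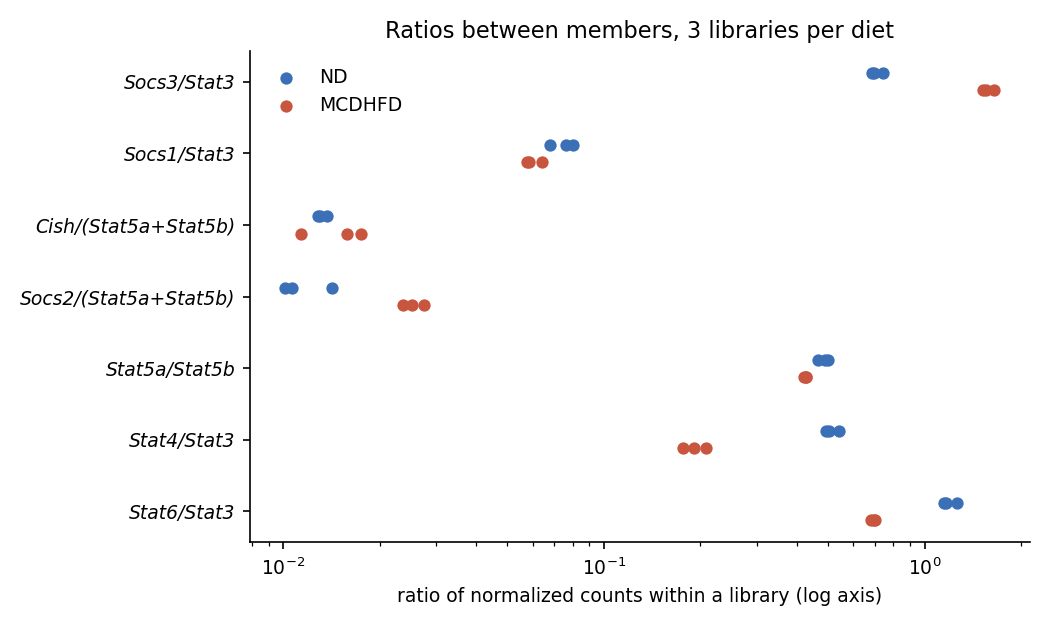
Ratio of normalized counts within each library (horizontal log axis) for 7 pairs of members; points are the 3 ND and 3 MCDHFD libraries. The Socs3 to Stat3 ratio lies at 0.685 to 0.742 in ND and at 1.52 to 1.65 in MCDHFD, and the Cish ratio is the only one whose diets overlap.

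Of 5 other genes of the STAT and SOCS families described here, 1 rose and 2 fell, a share near the 58.4% of all tested genes that changed, while all 5 were higher with the CD8 identity genes held equal. Stat2, a factor of type I interferon signals, fell by 0.25 on the log2 scale (limma adjusted p = 0.0162), and Socs5, studied in IL-4 receptor and EGF receptor signalling, by 0.59 (limma adjusted p = 0.00131). Socs4 rose (log2 fold change 0.52, limma adjusted p = 0.000129). Socs7 (0.12) and Socs6 (0.57) did not pass. Socs6 was at 151, 348 and 394 normalized counts in ND and at 564, 196 and 611 in MCDHFD, with ND replicate 1 and MCDHFD replicate 2 low, and its relative spread of 43.4% and 49.8% was the widest of these 5 and the 9 members.

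Of the 4 JAK genes, upstream of the factors, 3 fell on the deposited scaling and none was lower with the CD8 identity genes held equal. As background for this list and those below, 30.3% of the 13430 tested genes were higher and 28.1% lower on the deposited scaling. With the CD8 identity genes held equal, 11189 of them were higher and 455 lower. Jak1, which pairs with most cytokine receptors of T cells, was at 20825, 20178 and 20661 normalized counts in ND and at 14050, 11908 and 12213 in MCDHFD (log2 fold change -0.70). Tyk2, of the IL-12 and interferon receptors, fell by 0.71 on the log2 scale, and Jak3, partner of the common gamma chain, by 0.33, while Jak2 did not pass (-0.13). Under the identity scaling all 4 were higher (their median was 0.52, that of every tested gene 1.03). Of 10 other inhibitors of the pathway, 2 rose and 3 fell, and all 10 were higher under the identity scaling. The phosphatase gene Ptpn1, whose product acts on JAK2 and TYK2, rose from 3155 ± 130.4 to 6698 ± 241 normalized counts (SD, n = 3), and the adaptor gene Sh2b3 by a log2 fold change of 0.37. The phosphatase genes Ptpn2 (-0.64), Ptpn6 (-0.63) and Ptprc (-0.50), which encodes CD45, fell. Ptpn11 (-0.064) and the PIAS genes Pias1 (0.057), Pias2 (0.11), Pias3 (-0.034) and Pias4 (0.021) did not pass.

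Of the cytokine genes listed, 9 were tested, of which 3 rose and 2 fell, against 6 higher and 2 lower with the CD8 identity genes held equal. Il10, an anti-inflammatory STAT3 cytokine, rose from 14.7 ± 1.83 to 49.6 ± 3.81 normalized counts (SD, n = 3). Osm, of the IL-6 family, rose from 65.8 ± 15.3 to 110.0 ± 5.04 and Tslp from 4.92 ± 2.63 to 15.9 ± 7.59, but Tslp passed the filter on low values only through MCDHFD. Il12b, a chain of the STAT4 cytokine IL-12 made by dendritic cells and macrophages, fell from 152 ± 29.6 to 10.3 ± 8.28, and Ifng, a STAT4 product, from 59.5 ± 9.48 to 13.8 ± 6.14. Ebi3 (log2 fold change 0.33), Il15 (0.31) and Il27 (0.45) did not pass.

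Receptor chains went both ways, where 30.3% of all tested genes were higher and 28.1% lower. Of 29 tested receptor genes, 13 were higher and 12 lower (23 and 5 with the CD8 identity genes held equal). The 6 largest changes were those of Epor (log2 fold change 2.92), the erythropoietin receptor of red cell precursors, Lepr, which rose from 3.61 ± 3.03 to 25.0 ± 4.55 normalized counts, Il2ra (-2.26), Il5ra (-2.24), Il9r (-1.98) and Csf2rb (1.95), the shared chain of GM-CSF, IL-3 and IL-5 receptors. Lepr passed the filter on low values only through MCDHFD and Il5ra (36.9 ± 8.46, then 7.24 ± 2.96 normalized counts) only through ND, so both had to differ to be counted. Il10ra (0.43), Csf3r (0.13) and Il12rb1 (-0.23) did not pass. The erythroid and macrophage marker sums given above rose in the libraries where Epor and Csf2rb rose, and their part was not tested. Epor is itself on the erythroid list, so its rise is contained in that sum.

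**Figure D5:**
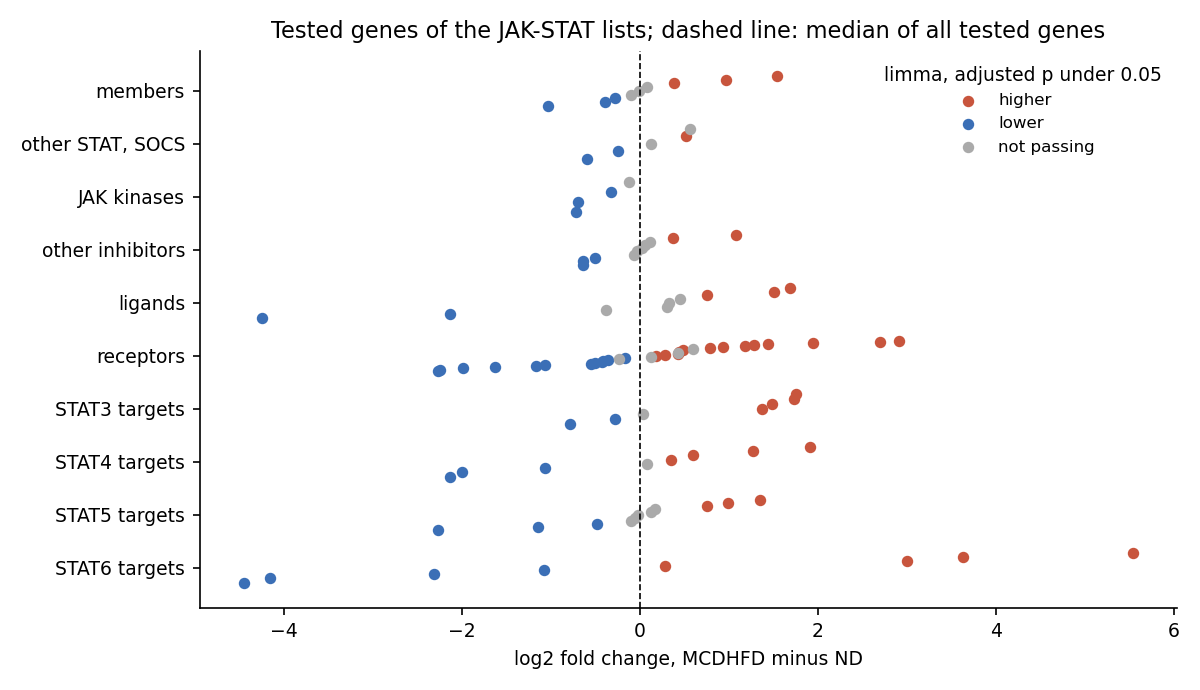
Log2 fold change (MCDHFD minus ND, horizontal axis, deposited scaling) of each tested gene of the JAK-STAT lists, one row per list; red points rose, blue points fell and grey points did not pass in limma. With the CD8 identity genes held equal many of the blue points lie above 0 (those of the 3 JAK genes that fell, for example). The members span -1.03 to 1.54, and the dashed line is the median of all tested genes, 0.0038.

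Genes known as targets of a factor did not move in 1 direction with it on the deposited scaling. Of 7 STAT3 targets described here, 4 rose and 2 fell (6 higher and 0 lower under the identity scaling). Fos (log2 fold change 1.76), Maf (1.74), Prdm1 (1.49) and the NF-kB cofactor gene Bcl3 (1.38) rose, Bcl6 (-0.79) and Junb (-0.28) fell, and Batf (0.037) did not pass. Under the identity scaling Junb was at 0.76 and passed, and Bcl6 was at 0.25 and did not. Prdm1 is also on the plasma cell list, whose sum was 5272 to 5593 in ND and 6695 to 9945 in MCDHFD. Of 11 STAT5 targets, 3 rose and 3 fell (8 higher and 1 lower under the identity scaling). The survival gene Bcl2 rose from 3086 ± 126 to 7876 ± 244 normalized counts (SD, n = 3), the kinase gene Pim1 from 4264 ± 99.2 to 8503 ± 109, and Osm as above. Il2ra (-2.26), the perforin gene Prf1 (-1.14) and Pim2 (-0.48) fell, where under the identity scaling Il2ra was still lower (-1.26), Prf1 did not pass (-0.11) and Pim2 was higher (0.55). Of the rest, Ccnd2 (-0.019), Ccnd3 (0.18) and Myc (-0.100) did not pass. The part of cells other than CD8 T cells in the values of both lists was not tested.

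Of 8 STAT4 targets, 4 rose and 3 fell (5 higher and 2 lower under the identity scaling). The T cell effector genes Ifng (log2 fold change -2.13), Tbx21 (-2.0) and Il12rb2 (-1.07) fell, but Il12rb2 did not pass under the identity scaling (-0.060). Hlx (1.92), Gadd45g (1.27) and Furin (0.60) rose, and so did Il18rap (0.35), which stands outside the rule for named genes and was added after its value was seen. Il18r1 (0.081), like Il18rap an IL-18 receptor gene, did not pass. The 8 tested STAT6 targets divided into 4 higher and 4 lower (4 and 3 under the identity scaling). Chil3 (5.54), Ccl24 (3.63) and Mrc1, all known from macrophages, rose, Mrc1 from 4585 ± 385 to 36791 ± 4489.7 normalized counts (SD, n = 3). Eomes (-2.31), a factor of effector and memory T cells that IL-4 induces in CD8 T cells, fell. The B cell gene Fcer2a fell from 423 ± 33.7 to 22.9 ± 1.52 normalized counts, and Ccl22, a chemokine of dendritic cells, from 62.4 ± 1.56 to 2.94 ± 3.35, below a floor of 3 counts, so that Ccl22 passed the filter only through ND. The macrophage marker sum rose in the same libraries, and the dendritic cell sum fell from 57756 to 62059 in ND to 26610 to 27519 in MCDHFD. The B cell sum overlapped, at 20561 to 23039 in ND and 17890 to 20645 in MCDHFD. It includes Fcer2a itself. It also includes Ighm, which rose from a mean of 12576 to 16685. On the deposited scaling 12 of the 13 B cell genes fell, and 8 under the identity scaling. The part of these cells was not tested.

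As a description of likeness, the tested genes whose log2 values correlated best with each member over the 6 libraries were sought, passing over Gm and Rik symbols. With 3 libraries on each diet such a correlation mostly follows the diet. For Socs3 these were Tomm40 (Pearson r = 0.9999) and Syk (0.9993), among 408 genes above 0.99. For Stat4 they were Fam189b (0.9997) and Tmie (0.9996), among 412 genes, and for Stat6 Cdc37 (0.9995) and Trim34a (0.9994), among 316. Stat3 was nearest to Ndufv2 (0.999) and Ranbp2 (0.9983), and Socs2 to C5ar2 and Extl2 (both 0.9989). Stat5a was nearest to Cdc25a and Ngdn (both 0.9963), and Stat5b to Zmat2 (0.9966) and Cdc25a (0.9949). Socs1 (Ttc30b at 0.9849 and Abtb1 at 0.9763) and Cish (Arfgap1 at 0.9864 and Zfp365 at 0.9755) had no gene above 0.99.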

How the data were processed

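The labels name a kit for whole RNA and one for mRNA without saying which library had which. The deposited table gives normalized counts, a signal on a scale set by the authors, and the values themselves show read counts divided by a factor per library. The build was mm10, per the submitters' processing notes; the sources used here give no aligner, counter, strand setting or annotation. In each library 100% of the values were whole multiples of the smallest value above 0, at a tolerance of 0.01. The step of ND replicate 3, 0.99, was too near 1 to meet the criterion for recovered reads, so count tests ran without that library. Symbols were matched by identifier for 19202 of 19323 genes, and transcript lengths and positions came from GENCODE M21 on mm10.

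Genes with a mean of at least 10 (13430) were tested with limma 3.58.1 in R 4.3.3 on log2(value + 1), with a trend on mean level and diet as the single factor, and called at a Benjamini-Hochberg adjusted p under 0.05. Fold changes are on this log2 scale, so those of low genes are understated. Ratios were tested by exact permutation over all 20 arrangements. Alternatives were other pseudocounts, filters, scalings and thresholds, library weights, a replicate block, each library left out, and edgeR 4.0.16 and DESeq2 1.42.0 on recovered reads of 5 libraries. The fit was tested on simulated data. The 4 same-diet pairs of libraries with recovered reads differed by more than sampling noise (chi-square per degree of freedom of 6.44 to 12.35), and the 2 pairs with ND replicate 3 were not tested.

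Some genes of the lists are not reported here and were left out of the list counts and family shares. The members and lists were chosen with earlier results of these data known. Named genes are all members, all genes of the other family, JAK and inhibitor lists, up to 6 passing genes by size and up to 3 others by mean of each ligand, receptor and target list, the 2 genes of highest correlation with each member, and the marker sums with up to 3 genes by mean. Exceptions are said in the text, or rest on a level of 0 (Cd209a) or, for other markers, on passing the filter through MCDHFD or ND only. Some genes, such as Il2ra, Osm, Epor, Prdm1 and Fcer2a, belong to several lists.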

Additional observations from a re-analysis of the deposited data

How the results depend on the processing

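The 6 members that passed kept their direction and call when each library was left out in turn, where between 7069 and 7677 of all tested genes passed against 7837 with all libraries. The same 6 passed with edgeR (7136 of all tested genes) and DESeq2 (6715) on recovered reads of 5 libraries, and with other pseudocounts, TMM or quantile scaling, and library weights, and 6 passed at an adjusted p under 0.01, as did 6071 of the 13430 tested genes. At a filter of a mean of 100, Socs2 and Cish were not tested. With the additional demand of at least 1.5-fold, 3 members passed, of which 1 was lower, among 4546 tested genes (2548 higher, 1998 lower). With the CD8 identity genes held equal, 8 members were higher and 0 lower, among 11189 higher and 455 lower genes. Under it the log2 fold changes of Stat4 (0.0075), Stat5a (0.75), Stat5b (0.94), Stat6 (0.64) and Cish (1.02) had the opposite sign, since that scaling raises every MCDHFD value. Cish, at -0.0028, also changed sign without ND replicate 2 (0.0022), ND replicate 3 (0.034) or MCDHFD replicate 2 (0.17), with values from -0.14 to 0.17 over the libraries left out, and in edgeR (0.048) and in DESeq2 (0.052), and passed in none of these 5. With the replicate number as a block, 7707 tested genes and the same 6 members passed. Same-numbered libraries deviated together with correlations of 0.006 to 0.062, so the numbers were not taken to pair them, and ND replicate 3 correlated best with MCDHFD replicate 1. The 7 ratios moved by less than their spread between libraries at a pseudocount of 8 and with any 1 library left out. Depth limits Cish and Socs2 most, at 51.9 to 129 normalized counts per library.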
